A study of Mus musculus with 7899 samples.

Results

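The enzymes of glycolysis, pyruvate use and the tricarboxylic acid (TCA) cycle were followed in mouse pancreatic β cells. The samples cover pregnancy, the time after delivery and a set of gene knockouts, diets and islet cultures. The group holds 39 genes, chosen by their symbols in the deposited read count tables, of 21767 genes in the tables that list the most. It comprises 13 enzymes of glycolysis from glucose phosphate isomerase (Gpi1) to muscle pyruvate kinase (Pkm), 8 genes that handle pyruvate, 15 enzymes of the TCA cycle with their cytosolic counterparts, and 3 genes of the shuttles that carry reducing equivalents into mitochondria. All 39 genes are listed in 6 of the 7 tables and 34 in the Stat3 table, which lacks Gapdh, Pgk1, Eno1, Suclg1 and Suclg2. Every member listed in a table passed the filter on low counts there.

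β cells measure blood glucose by burning it. Glucose enters through the transporter Slc2a2 and is phosphorylated in the cell. The pyruvate that glycolysis yields is fed almost wholly to mitochondria, since β cells hold little lactate dehydrogenase (Ldha). The ATP made there closes potassium channels and triggers insulin release. The NADH made in the cytosol reaches mitochondria through the glycerol phosphate shuttle (Gpd1 with the mitochondrial enzyme Gpd2) and the malate-aspartate shuttle (Mdh1, Mdh2, Got1, Got2). In pregnancy the maternal islets adapt to insulin resistance by raising insulin output and β-cell number.

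Each sample is 1 sorted β cell of a female C57BL/6J mouse, sequenced with Smart-seq3xpress, a plate method. Adding up the cells of a group's replicate gave 100 libraries in 48 groups, with 2 or 3 replicates a group. The time course on a standard diet, with no genotype given, covers early gestation (G3.5, G5.5 and G6.5, named by the day), its middle (G8.5, G10.5 and G12.5) and its end (G14.5, then G16.5 and G18.5). Mothers were also taken 2, 7 and 14 days after delivery (P2, P7, P14), with names that carry L (read as lactating) or NL (read as not lactating), and G0 mice were not pregnant. Knockouts of Acss2 (acetyl-CoA synthetase), Stat3 (a transcription factor) and p300 (Ep300, a histone acetyltransferase), named Acss2KO, Stat3KO and p300KO, stand beside wild-type mice (Acss2WT, Stat3WT, p300WT) at G14.5 and G0, and also at G18.5 for the first pair of genes, all on the standard diet. High-fat-diet (HFD) groups are HFD_G14.5, HFD_P7NL and HFD_G0 with no genotype given, and Acss2KO and Acss2WT mice at G14.5 and G0. Their table also has a standard-diet group, SD_G14.5_Acss2WT. Cultured islets of standard-diet mice were kept for 4 days in 20% human maternal serum (MS) or human normal serum (NS). They received A485 at 5 µM (an inhibitor of p300 and its relative CBP), nifuroxazide (Nif) at 20 µM (an inhibitor of STAT3 signalling), or DMSO vehicle (A485Ctrl, NifCtrl).

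The labels do not name a Cre driver or the deleted exons, so the cells in which each gene was removed are not known here, and the serum donors are not described. The libraries hold 21 to 160 cells and 13273435 to 181405413 reads. β-cell markers were at the level of the label: Ins1 and Ins2 alone took from 33% of reads in the nifuroxazide cultures to 69.8% in the Acss2 table. The glucagon, somatostatin and pancreatic polypeptide genes took at most 0.875% of reads. All 4 stromal markers stayed under 1 CPM (counts-per-million) in 6 of the 7 tables, and summed endothelial markers reached at most 6.61 CPM. Sums of other lists were higher: over the libraries, ductal markers summed to 71.8 to 1056 CPM, immune markers to 4.29 to 151.3 CPM and hepatocyte markers to 1.76 to 558 CPM. The ductal and immune sums rested on few genes. In each table only 1 or 2 of the 5 ductal markers reached 10 CPM in a library, as did 1 or 2 of the 5 immune markers. Acinar markers reached 346 CPM in a high-fat library and at most 24.7 CPM in the other 6 tables. Transcripts of the targeted genes remained in the libraries labelled knockout. Acss2 was at 9.22 to 25.1 CPM in Acss2KO and 18.8 to 43.4 CPM in Acss2WT libraries on the standard diet. In the high-fat table it was at 13.4 to 18.7 CPM in HFD Acss2KO and 20.5 to 59.5 CPM in Acss2WT libraries. Stat3 was at 44.6 to 70.8 CPM in Stat3KO and 65.7 to 111.2 CPM in Stat3WT libraries. Ep300 was at 13.1 to 20.4 CPM in p300KO and 24.6 to 39.9 CPM in p300WT libraries. Of these only Acss2 at G14.5 on the high-fat diet was called lower (log2 fold change -1.42 ± 0.22 SE, edgeR quasi-likelihood adjusted p = 0.012). Reads over the undeleted part of a gene would not check the label. In bulk sums, fewer reads of a transcript per cell and fewer cells that hold it cannot be told apart. In the time course a read of Pkm was found in 100% of the cells of every group, of Mdh1 in at least 99.3%, of Gpd2 in at least 93.4% and of Pfkm in 75.6 to 91.6%.

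In G0 β cells the enzymes were well above the typical gene. Per kilobase of transcript, 38 of the 39 lay above the median of 2.42 reads-per-kilobase-per-million (RPKM) over the 15373 genes tested, and their own median was 16.6 RPKM. Pkm, which makes pyruvate, and aldolase A (Aldoa), which splits fructose bisphosphate, were the highest at 210 ± 8.47 and 209 ± 8.73 RPKM (SD, n = 2 for all values at G0). The malate-aspartate shuttle enzyme Mdh1 followed at 110 ± 14.3 RPKM, then mitochondrial isocitrate dehydrogenase Idh2 at 83.1 ± 9.08 RPKM and glyceraldehyde phosphate dehydrogenase Gapdh at 77.9 ± 13.4 RPKM. The order among the highest is set by more than the spread only in part: Pkm and Aldoa overlapped, as did Idh2 and Gapdh, while Mdh1 lay below both Pkm and Aldoa in both libraries.

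Within a step, 1 isoform usually led. Aldoa exceeded aldolase C (Aldoc, 5.28 ± 0.74 RPKM), and enolase 1 (Eno1, 35.6 ± 0.82 RPKM) exceeded enolase 2 (Eno2, 9.17 ± 0.29 RPKM). The 3 phosphofructokinases, which catalyse the committed step of glycolysis, were all modest: the muscle form Pfkm at 13.5 ± 0.73 RPKM, the liver form Pfkl at 9.77 ± 1.61 RPKM and the platelet form Pfkp at 4.24 ± 0.85 RPKM. The GTP-forming and ATP-forming subunits of succinyl-CoA ligase were at 10.7 ± 0.34 RPKM (Suclg2) and 18.1 ± 3.91 RPKM (Sucla2), with their shared partner Suclg1 at 26.6 ± 3.17 RPKM. Of the isocitrate dehydrogenase 3 subunits, the catalytic Idh3a was at 15.6 ± 0.94 RPKM, Idh3b at 34.2 ± 7.63 RPKM and Idh3g at 46.9 ± 9.15 RPKM.

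Pyruvate handling was the lowest of the larger groups, with a median of 10.1 RPKM over 8 genes, against 18.1 RPKM over the 13 glycolysis genes and 24.7 RPKM over the 15 TCA genes. Pyruvate carboxylase (Pcx), which sends pyruvate into oxaloacetate and is abundant in β cells, was at 17 ± 4.87 RPKM. In the pyruvate dehydrogenase complex the E1 subunits were at 42.9 ± 2.51 RPKM (Pdhb) and 8.74 ± 0.57 RPKM (Pdha1), the E2 subunit Dlat at 5.46 ± 0.55 RPKM, the E3 subunit Dld at 16.6 ± 2.39 RPKM and the E3-binding protein Pdhx at 3.90 ± 0.30 RPKM. The kinases that switch the complex off were at 11.5 ± 6.97 RPKM (Pdk2) and 2.41 ± 0.29 RPKM (Pdk1), Pdk1 being the member below the all-gene median. Among the shuttle genes Gpd2 was at 16.2 ± 3.57 RPKM, the mitochondrial aspartate aminotransferase Got2 at 15.5 ± 3.90 RPKM and its cytosolic form Got1 at 6.94 ± 0.45 RPKM. Pseudogenes and close relatives of Gapdh, Pgk1, Pgam1, Eno1, Tpi1, Aldoa and Pkm can share reads with them, so the levels of these genes are uncertain.

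**Figure D1:**
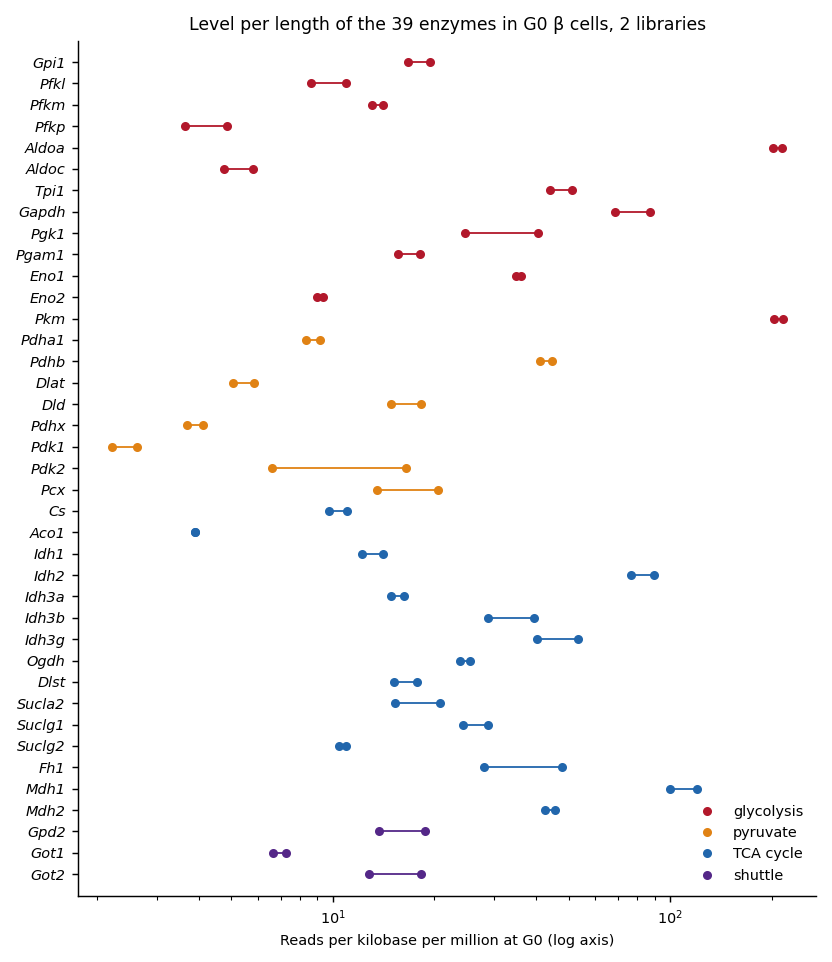
Level of each of the 39 enzymes in the time course's pair of G0 libraries, in RPKM on a log axis, in pathway order and coloured by role; a line joins the libraries of a gene. Pkm and Aldoa are the highest at 210 and 209 RPKM and Pdk1 the lowest at 2.41 RPKM.

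The first question was which enzymes change as pregnancy proceeds. Between G8.5 and G16.5 a few TCA and malate shuttle enzymes were called higher than at G0. The phosphofructokinase Pfkm was called lower at 5 stages from G8.5 on, and the glycerol phosphate shuttle enzyme Gpd2 at G5.5, G12.5, G16.5 and G18.5, while most of the pathway did not pass the test. Members called (Benjamini-Hochberg adjusted p under 0.05 over all genes, edgeR) numbered 1 of 39 at G5.5 against 1.57% of all genes, 6 at G8.5 against 5.79%, 3 at G10.5 against 2.76%, 6 at G12.5 against 5.03%, 7 at G14.5 against 10.1%, 7 at G16.5 against 7.25% and 4 at G18.5 against 4.77%. Calls among the members thus made up 15.4% at G8.5 and G12.5, 17.9% at G14.5 and G16.5 and 10.3% at G18.5, above the share of all genes. The members are also expressed above the typical gene and their calls at different stages share the same pair of G0 libraries. At G3.5 and G6.5 none was called with edgeR, where 0.579% and 1.65% of all genes were. Unadjusted p was under 0.05 for 6 members (15.4%) at either stage, and for 11.8% of all genes at G3.5 and 13.1% at G6.5. DESeq2 called 1 at either stage, and limma on the normalized values called 0 at G3.5 and 1 at G6.5. The median log2 fold change of the members lay between -0.08 at G10.5 and 0.18 at G16.5, with that of all genes between 0.00 and 0.02. Summed α-cell markers moved in the same libraries: they were at 3974 to 4899 CPM at G5.5, 968 to 1572 CPM at G14.5 and 786 to 1755 CPM at G18.5, against 1596 to 3161 CPM at G0. Hepatocyte markers were at 311 to 445 CPM at G8.5 and at most 50.4 CPM at the other gestation stages, against 8.34 to 16.98 CPM at G0. Summed immune markers were at 97.3 to 111.8 CPM at G8.5 and 102.7 to 104.7 CPM at G12.5, against 27.4 to 57.3 CPM at G0. Of the 5 immune markers, 2 reached 10 CPM in a library of the time course. Summed δ-cell markers were at 33.8 to 148.7 CPM at G14.5 and 87.99 to 177 CPM at G16.5, against 262 to 774 CPM at G0. The part of these cell types in the results was not tested beyond leaving out cells with over 5% of reads in other hormone genes, under which all calls of the time course were kept.

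**Figure D2:**
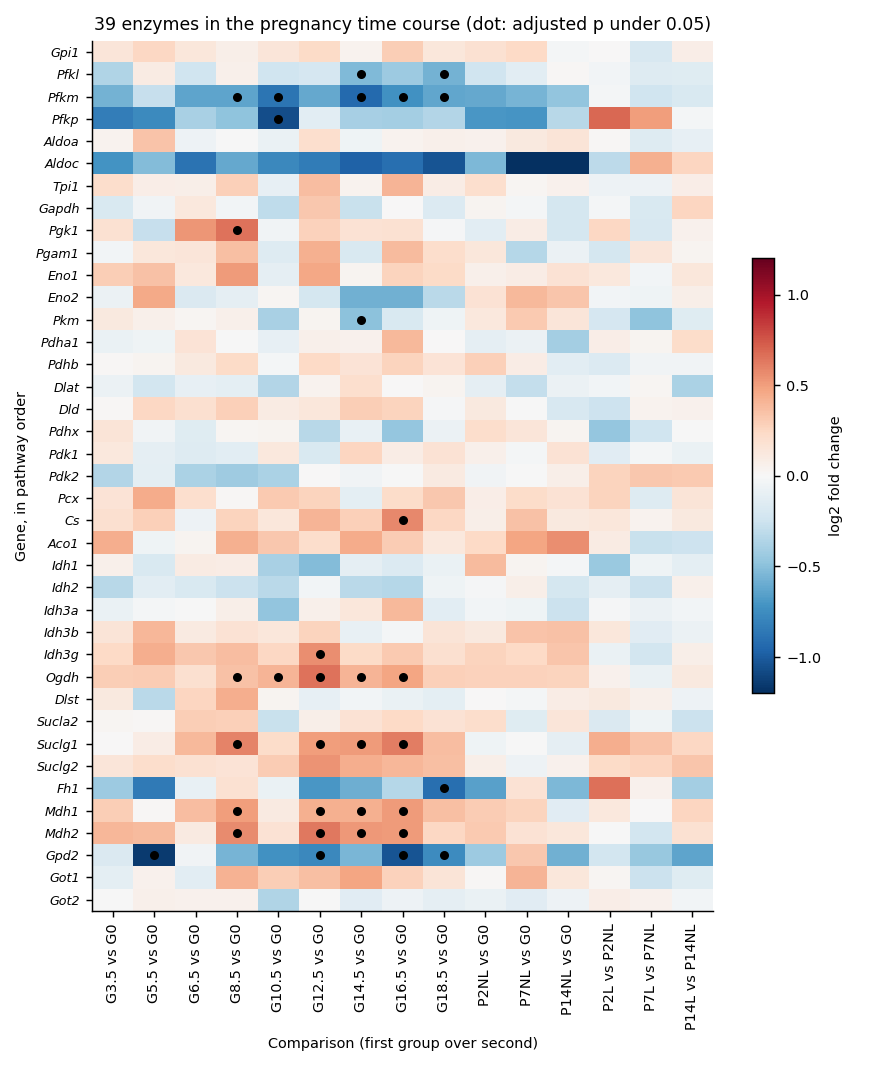
Log2 fold change of each of the 39 enzymes, in pathway order, in the 15 comparisons of the time course, with a dot where the adjusted p is under 0.05. The colour scale ends at 1.2 in either direction, which the fall of Aldoc at P7NL (-1.32) and P14NL (-1.24) passes; the dots gather in Ogdh, Suclg1, Mdh1 and Mdh2 (higher) and in Pfkm and Gpd2 (lower).

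In the TCA cycle, 4 of the 15 genes rose at G8.5, 1 at G10.5, 5 at G12.5, 4 at G14.5 and 5 at G16.5, and none fell before G18.5. Malate dehydrogenase 2 (Mdh2), which makes oxaloacetate in mitochondria, was at 98.3 and 92 CPM at G8.5, 105.4 and 94.1 CPM at G12.5, 99.1, 81.7 and 95 CPM at G14.5, and 86.7 and 95.9 CPM at G16.5, against 66.5 and 62 CPM at G0. Every one of these libraries lay above both G0 libraries, and log2 fold changes ran from 0.51 ± 0.14 (SE) at G16.5 (adjusted p = 0.0185) to 0.63 ± 0.14 at G12.5 (adjusted p = 0.00415). Its cytosolic partner Mdh1, also a shuttle enzyme, was at 355 and 304 CPM at G8.5, 310 and 316 CPM at G12.5, 302, 306 and 334 CPM at G14.5, and 308 and 356 CPM at G16.5, against 212 and 255 CPM at G0. The groups again did not overlap. The change was 0.43 ± 0.13 at G12.5 (adjusted p = 0.044) to 0.51 ± 0.13 at G16.5 (adjusted p = 0.0112).

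Suclg1, the shared subunit of succinyl-CoA ligase, was at 114.7 and 108.2 CPM at G8.5, 100.7 and 108.1 CPM at G12.5, 105.8, 106.8 and 102.95 CPM at G14.5, and 117.1 and 108.6 CPM at G16.5, against 79.7 and 67.3 CPM at G0. It did not overlap G0 at any of these stages, with log2 fold changes of 0.51 ± 0.14 at G12.5 (adjusted p = 0.0273) to 0.62 ± 0.14 at G16.5 (adjusted p = 0.00492). Oxoglutarate dehydrogenase (Ogdh), a rate-controlling step, was at 134.6 and 124.9 CPM at G8.5, 134.5 and 135.5 CPM at G10.5, 152.6 and 168.3 CPM at G12.5, 128.8, 138.1 and 137.96 CPM at G14.5, and 141.3 and 140.7 CPM at G16.5, against 98.3 and 105.4 CPM at G0. Ogdh was called at these 5 stages and was highest at G12.5 (0.66 ± 0.11, adjusted p = 0.000197). The citrate synthase gene Cs was called at G16.5 alone, at 46.3 and 41.2 CPM against 31.1 and 27.6 CPM at G0 (0.57 ± 0.16, adjusted p = 0.0226). Idh3g was called at G12.5 alone, at 131.6 and 155.7 CPM against 110.9 and 84 CPM at G0 (0.56 ± 0.14, adjusted p = 0.0158). Fumarase (Fh1) was the member of the cycle that fell, at G18.5, with 48.9, 55.6 and 55.5 CPM against 74.2 and 126.2 CPM at G0 (-0.91 ± 0.22, adjusted p = 0.0117). Its G0 libraries were far apart, and without G0 replicate 2 the change was -0.48 (adjusted p = 0.472).

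These calls leaned on single libraries. Without G0 replicate 1, all 4 calls of Mdh1 (adjusted p from 0.155 to 0.316), 4 of 5 of Ogdh (0.0647 to 0.213), 1 of 4 of Mdh2 (0.053) and that of Cs (0.05) were lost. Without G0 replicate 2 the losses were all 4 of Mdh2 (0.0713 to 0.151), all 4 of Suclg1 (0.106 to 0.286), 2 of 5 of Ogdh (0.0943 to 0.114), 1 of 4 of Mdh1 (0.051), and those of Cs (0.193) and Idh3g (0.299). Leaving out a library of the stage ended 3 of 9 calls of Mdh2 (without G8.5 replicate 1, G12.5 replicate 1 or G16.5 replicate 2, at 0.0724 to 0.168). It ended 5 of 9 of Mdh1 (without G8.5 replicate 1, either G12.5 replicate, G14.5 replicate 3 or G16.5 replicate 2, at 0.0677 to 0.194). It also ended 3 of 9 of Suclg1 (without G8.5 replicate 1 or either G12.5 replicate, at 0.0682 to 0.179) and 4 of 11 of Ogdh (without either replicate of G8.5 or G10.5, at 0.0873 to 0.259). The same happened to Cs without either G16.5 replicate (0.0568 to 0.155), to Idh3g without G12.5 replicate 2 (0.209) and to Fh1 without G18.5 replicate 1 (0.0554). The call of Ogdh at G12.5 was kept in all of them. Limma called 2 TCA genes at G12.5, where edgeR called 5, without Idh3g (adjusted p = 0.0555), Mdh1 (0.077) and Suclg1 (0.0673), and it also missed Suclg1 at G14.5 (0.0584) and Ogdh at G8.5 (0.117). Without the filter on low counts, Ogdh at G8.5, G10.5 and G14.5 (0.0517 to 0.192) and Mdh1 at G12.5 (0.0645) were not called, nor was Ogdh at G8.5 with DESeq2's size factors (0.0532).

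In glycolysis the calls went mostly the other way. Pfkm, a subunit of the committed enzyme, was at 28.7 and 21.5 CPM at G8.5, 21.8 and 20.8 CPM at G10.5, 17.8, 24.9 and 18.52 CPM at G14.5, 24.3 and 22.8 CPM at G16.5, and 23.6, 23.96 and 28.4 CPM at G18.5, against 40.5 and 37.5 CPM at G0. No library of these stages reached G0, and the fall was deepest at G14.5 (-0.93 ± 0.18, adjusted p = 0.000644) and smallest at G18.5 (-0.63 ± 0.18, adjusted p = 0.0326). The liver form Pfkl fell at G14.5 (23.8, 29.4 and 22.8 CPM) and G18.5 (25.6, 23.8 and 24.4 CPM), against 40.7 and 32.2 CPM at G0, with changes of -0.53 ± 0.17 (adjusted p = 0.0374) and -0.57 ± 0.17 (adjusted p = 0.0399). The platelet form Pfkp fell at G10.5 alone, at 9.55 and 9.40 CPM against 22.6 and 16.95 CPM at G0 (-1.06 ± 0.27, adjusted p = 0.0216). All 3 forms of phosphofructokinase were therefore called lower at 1 or more stages of gestation.

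Pkm fell at G14.5, at 306, 444 and 338 CPM against 525 and 496 CPM at G0 (-0.49 ± 0.12, adjusted p = 0.00693). Phosphoglycerate kinase (Pgk1) was the glycolysis gene that rose, at G8.5, with 98.4 and 87.7 CPM against 44.8 and 73.9 CPM at G0 (0.65 ± 0.20, adjusted p = 0.0452). That change was 0.33 (adjusted p = 0.443) without G0 replicate 1 and 1.05 without G0 replicate 2. Aldoc, named here after its values were seen, had lower values than at G0 at every later stage without passing the test, for example 7.17 ± 0.83 CPM at G18.5 (n = 3) and 5.86 ± 3.63 CPM at P7NL (n = 2), against 14.7 ± 2.06 CPM at G0 (n = 2). Its adjusted p ran from 0.0749 at G14.5 to 0.654 at P2NL. Without G0 replicate 1 the calls of Pfkm at G8.5, G10.5, G16.5 and G18.5 (adjusted p from 0.0668 to 0.172), of Pfkp (0.177), of Pkm (0.0731) and of Pfkl at both stages (0.34 to 0.366; -0.35 at G14.5) were lost. Without G0 replicate 2 those of Pfkm at G8.5, G16.5 and G18.5 were lost (0.0662 to 0.125). Without 1 library of the stage, calls were lost for Pfkm (either replicate of G8.5, G10.5 or G16.5, G18.5 replicates 1 or 2, at 0.0519 to 0.37) and Pfkp (either G10.5 replicate, at 0.157 to 0.158). They were also lost for Pfkl (G14.5 replicates 1 or 3, any G18.5 replicate, at 0.0762 to 0.148), Pkm (G14.5 replicate 1, at 0.0566) and Pgk1 (either G8.5 replicate, at 0.0876 to 0.23). The call of Pfkm at G14.5 was kept in every such refit.

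Gpd2, the mitochondrial glycerol phosphate dehydrogenase, was called in more comparisons than any other member, 11 of 45, each time lower in the first-named group. In the time course it was at 43.7 and 40.6 CPM at G5.5, 54.2 and 54.9 CPM at G12.5, 35.9 and 55 CPM at G16.5, and 55.04, 44.7 and 66.3 CPM at G18.5, against 78.7 and 107.8 CPM at G0. None of these libraries reached the G0 level. The log2 fold changes were -1.14 ± 0.22 at G5.5 (adjusted p = 0.00567), -0.77 ± 0.22 at G12.5 (adjusted p = 0.0341), -1.04 ± 0.22 at G16.5 (adjusted p = 0.00306) and -0.75 ± 0.20 at G18.5 (adjusted p = 0.0188). At G14.5, with 61.9, 54.1 and 74.5 CPM, the groups did not overlap either, but the call was missed (-0.55 ± 0.20, adjusted p = 0.0698). At G6.5 the libraries held 103.7 and 76.7 CPM and overlapped G0, between the low values of G5.5 and those from G8.5 on. All 4 calls were lost without G0 replicate 2 (adjusted p from 0.0859 to 0.375). Single calls were lost without G5.5 replicate 2, either G12.5 replicate, G16.5 replicate 1, or G18.5 replicates 1 or 2 (0.0569 to 0.162).

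**Figure D3:**
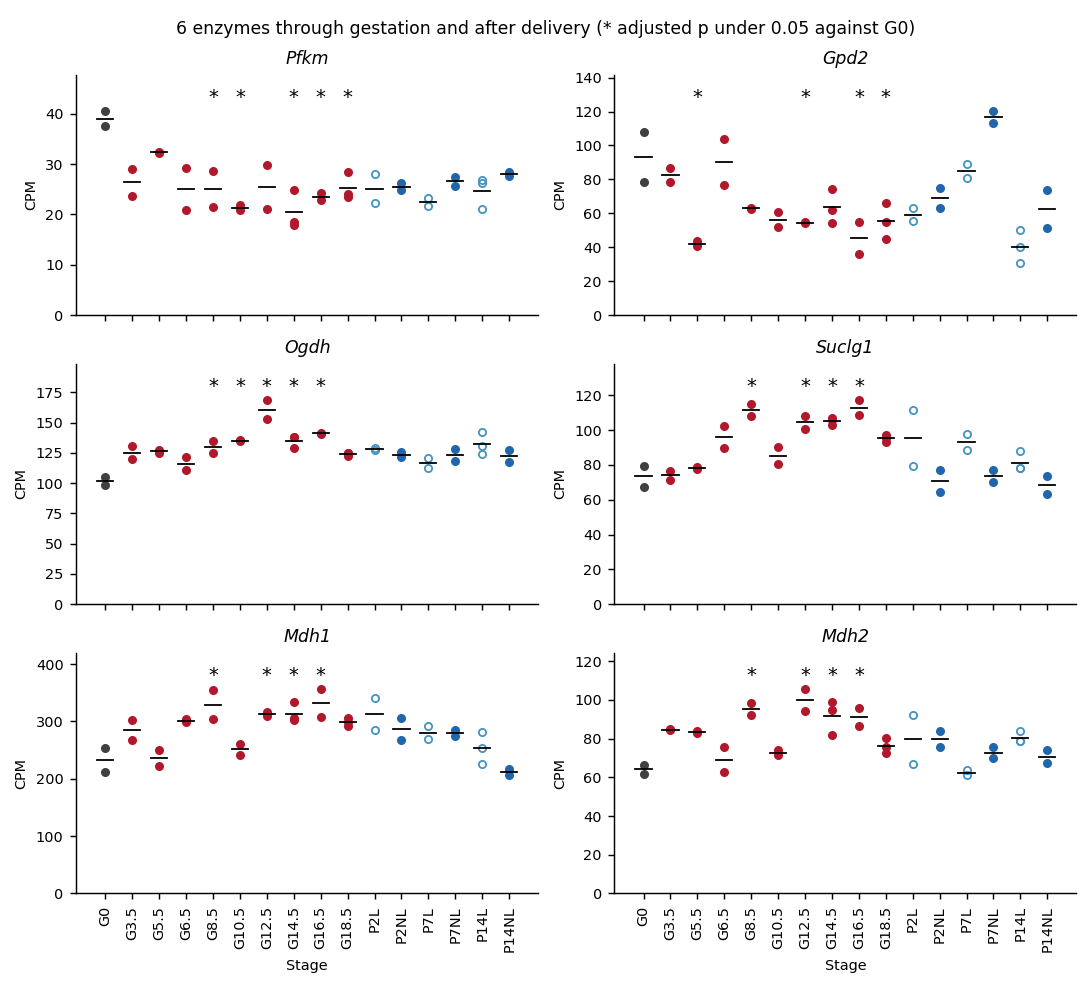
CPM of Pfkm, Gpd2, Ogdh, Suclg1, Mdh1 and Mdh2 in each library (points) and group mean (line) by stage: G0 in grey, gestation in red, after delivery in blue (open circles L, filled NL); stars mark adjusted p under 0.05 against G0, and L groups were not set against G0. Mdh2 lies at 81.7 CPM or more in every library of the 4 starred stages, above 66.5 CPM at G0, and Pfkm at 28.7 CPM or less in its 5 starred stages, below 37.5 CPM at G0.

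The promoters of Mdh1, Mdh2, Suclg1 and Ogdh, the TCA genes called higher at the same 4 stages, and of Gpd2 are shown because these genes carry the results of the time course. RefSeq (GRCm38.p6) gives a window of 250 bases before to 50 bases after the start for 38 of the 39 members (not Idh3a). The windows below read 5′ to 3′ on the strand of the gene. Capitals mark a match, on either strand, to the STAT motif TTCNNNGAA, the estrogen-related receptor motif AAGGTCA, the hypoxia response core ACGTG or the GC box GGGCGG. Mdh1 lies at chr11:21571885-21572184 (minus strand), Mdh2 at chr5:135778399-135778698, Suclg1 at chr6:73248255-73248554 and the most upstream of 6 windows of Ogdh at chr11:6291347-6291646, and Gpd2 has an upstream window at chr2:57237428-57237727 and a downstream one at chr2:57238132-57238431, all but Mdh1 on the plus strand.
Mdh1: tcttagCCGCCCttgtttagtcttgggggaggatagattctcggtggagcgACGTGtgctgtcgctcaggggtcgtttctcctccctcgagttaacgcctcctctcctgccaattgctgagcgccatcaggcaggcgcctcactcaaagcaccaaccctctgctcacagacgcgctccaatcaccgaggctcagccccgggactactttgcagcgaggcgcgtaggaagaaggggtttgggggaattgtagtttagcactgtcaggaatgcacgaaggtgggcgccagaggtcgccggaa
Mdh2: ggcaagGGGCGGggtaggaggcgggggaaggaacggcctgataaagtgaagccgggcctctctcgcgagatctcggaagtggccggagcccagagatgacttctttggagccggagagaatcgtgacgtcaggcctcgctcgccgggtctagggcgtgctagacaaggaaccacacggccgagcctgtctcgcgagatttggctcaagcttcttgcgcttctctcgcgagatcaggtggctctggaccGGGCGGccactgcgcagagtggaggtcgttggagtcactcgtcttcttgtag
Suclg1: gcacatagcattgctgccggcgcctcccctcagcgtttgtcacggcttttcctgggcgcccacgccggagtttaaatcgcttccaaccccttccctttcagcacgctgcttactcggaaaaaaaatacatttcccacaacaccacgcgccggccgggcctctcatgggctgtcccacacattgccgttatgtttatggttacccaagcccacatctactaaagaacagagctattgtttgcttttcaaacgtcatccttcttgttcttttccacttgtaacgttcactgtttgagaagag
Ogdh: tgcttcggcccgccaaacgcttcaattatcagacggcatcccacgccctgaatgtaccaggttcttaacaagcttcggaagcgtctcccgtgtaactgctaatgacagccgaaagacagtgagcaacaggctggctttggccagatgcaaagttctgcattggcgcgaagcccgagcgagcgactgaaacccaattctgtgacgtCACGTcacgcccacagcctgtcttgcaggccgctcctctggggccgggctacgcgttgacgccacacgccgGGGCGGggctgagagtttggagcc
Gpd2 upstream: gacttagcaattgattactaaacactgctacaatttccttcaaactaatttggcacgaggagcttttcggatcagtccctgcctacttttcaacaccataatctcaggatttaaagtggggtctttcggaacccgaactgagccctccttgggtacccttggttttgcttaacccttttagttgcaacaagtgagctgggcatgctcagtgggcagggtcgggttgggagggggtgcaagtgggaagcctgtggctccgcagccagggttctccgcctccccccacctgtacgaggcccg
Gpd2 downstream: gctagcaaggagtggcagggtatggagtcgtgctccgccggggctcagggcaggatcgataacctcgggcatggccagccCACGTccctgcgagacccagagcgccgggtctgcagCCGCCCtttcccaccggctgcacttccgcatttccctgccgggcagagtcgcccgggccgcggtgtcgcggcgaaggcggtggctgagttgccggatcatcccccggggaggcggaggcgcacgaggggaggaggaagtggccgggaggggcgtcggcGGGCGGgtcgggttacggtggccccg
Mdh1 held 1 ACGTG and 1 GC box, Mdh2 held 2 GC boxes, the window of Ogdh shown held 1 ACGTG and 1 GC box, Suclg1 and the upstream window of Gpd2 held no match, and the downstream window of Gpd2 held 1 ACGTG and 2 GC boxes. Of the Ogdh windows not shown, that at chr11:6291920-6292219 held 1 AAGGTCA, 2 ACGTG (on both strands of a CACGTG) and 1 GC box. No other Ogdh window held AAGGTCA. Over all 32851 RefSeq windows of this length, 8.30% held TTCNNNGAA, 4.72% held AAGGTCA, 19.6% held ACGTG and 35.7% held GGGCGG. The windows shown differed in base composition, from 51% G and C in Suclg1 to 72.7% in the downstream window of Gpd2. No match says only that these letters are absent from the window.

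After delivery no member was called in 6 comparisons. EdgeR called 0.572% of all genes at P2NL, 0.462% at P7NL and 0.28% at P14NL against G0, and it called 0.124%, 0.839% and 0.722% in L against NL mothers at days 2, 7 and 14. Unadjusted p was under 0.05 for 6, 9 and 9 members at P2NL, P7NL and P14NL (15.4%, 23.1% and 23.1%), and for 10.6%, 11.5% and 9.97% of all genes. Of the 15 TCA genes, 3, 5 and 4 were higher and 1, 0 and 1 lower at that cut. Between L and NL mothers at the same days unadjusted p was under 0.05 for 5, 3 and 2 members (12.8%, 7.69% and 5.13%), and for 4.91%, 7.29% and 9.23% of all genes. DESeq2 called 1 member at P7NL, 1 between P7L and P7NL and 0 in the other 4, and limma called 0 in all 6. The enzymes that rose in mid-gestation were thus not called in NL mothers against G0 at any day after delivery, and L mothers were not set against G0. Gpd2 was at 113.05 and 120.2 CPM at P7NL, above both G0 libraries at 78.7 and 107.8 CPM (0.32 ± 0.22, adjusted p = 0.597). At day 14 it was at 30.7, 40.0 and 50.4 CPM in P14L and 51.6 and 73.6 CPM in P14NL mothers, with no overlap but no call (-0.63 ± 0.20, adjusted p = 0.173). Both P14NL libraries lay below both G0 libraries, also without a call. Of the 3 shuttle genes, 1 was lower at P14NL than at G0 at unadjusted p under 0.05.

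The wild-type mice of the knockout experiments and the mice on the high-fat diet are separate libraries in which gestation could be measured again, in 7 comparisons. Gpd2 fell in 6 of them, and other members were called in 3. In the Acss2 table Gpd2 was at 39.4 and 47.2 CPM in G14.5_Acss2WT and 45.4 and 34.2 CPM in G18.5_Acss2WT, against 92.6 and 96.4 CPM in G0_Acss2WT. The pregnant libraries lay at about the same low level at both stages. The changes of -1.13 ± 0.17 (adjusted p = 0.000938) and -1.25 ± 0.17 (adjusted p = 0.000318) were kept whichever library was left out. These stages had 1 and 3 of 39 members called, where 2.92% and 6.89% of all genes were called. The other calls were at G18.5: Got1, the cytosolic aminotransferase of the malate-aspartate shuttle, at 19.4 and 17.7 CPM against 8.62 and 12.51 CPM in G0_Acss2WT (0.81 ± 0.21, adjusted p = 0.0287), and Suclg1 at 104.8 and 136.4 CPM against 66.6 and 75.3 CPM in G0_Acss2WT (0.77 ± 0.16, adjusted p = 0.00778). Both were lost without G0_Acss2WT replicate 1 (adjusted p from 0.125 to 0.341) or G18.5_Acss2WT replicate 2 (0.0838 to 0.0957), and Got1 also without G18.5_Acss2WT replicate 1 (0.121). Limma did not call Got1 (0.0707).

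In the Stat3 table Gpd2 was the only call among 34 members at either stage, where 1.74% and 2.06% of all genes were called at G14.5 and G18.5. It was at 47 and 57.8 CPM in G14.5_Stat3WT and 36.3 and 61.3 CPM in G18.5_Stat3WT, against 102.1 and 117.3 CPM in G0_Stat3WT. The changes were -1.07 ± 0.23 (adjusted p = 0.0225) and -1.17 ± 0.23 (adjusted p = 0.0113). The groups did not overlap. The G14.5 call was lost whichever library was left out (adjusted p from 0.0556 to 0.188), and the G18.5 call without G0_Stat3WT replicate 2 (0.118) or G18.5_Stat3WT replicate 1 (0.12). Among p300WT mice, 2 of 39 members were called at G14.5, where 2.15% of all genes were, and Gpd2 was not among them. It was at 59.7 and 48.5 CPM in G14.5_p300WT and 117.5 and 39.6 CPM in G0_p300WT. Its G0 libraries lay on both sides of the pregnant ones (-0.53 ± 0.40, adjusted p = 0.526). The calls were Gapdh, at 215.2 and 157.9 CPM against 102.4 and 73.6 CPM in G0_p300WT (1.09 ± 0.21, adjusted p = 0.0191), and phosphoglycerate mutase (Pgam1), at 48.9 and 31.6 CPM against 22.2 and 17.9 CPM in G0_p300WT (1.01 ± 0.24, adjusted p = 0.0479). Both were lost without G0_p300WT replicate 2 (adjusted p from 0.0625 to 0.128) or G14.5_p300WT replicate 1 (0.138 to 0.279, with Pgam1 at 0.65), and Pgam1 without G0_p300WT replicate 1 (0.101). Neither was called in the time course. Summed δ-cell markers were at 11.8 to 12.6 CPM in G14.5_p300WT and 237.3 to 237.6 CPM in G0_p300WT. Markers of pancreatic polypeptide cells were at 3.57 to 8.22 CPM in G14.5_p300WT and 196 to 439 CPM in G0_p300WT. The part of these differences in the calls was not tested.

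The calls of Mdh1, Mdh2, Ogdh and Pfkm in the time course could be set beside the same genes at G14.5 in these wild-type mice. Suclg1, which the Stat3 table lacks, was not called in G14.5_Acss2WT or G14.5_p300WT. The high-fat gestation comparisons called none of these genes, and their values are not given here. For Mdh1 the log2 fold change was 0.37 in G14.5_Acss2WT, 0.52 in G14.5_Stat3WT and 0.49 in G14.5_p300WT libraries, each against its own G0, with adjusted p of 0.242, 0.19 and 0.202. The values were of the size seen at G14.5 in the time course (0.43) without a call. For Mdh2 they were -0.23, -0.07 and 0.66, with adjusted p of 0.566, 0.899 and 0.156, so the sign differed between tables. For Ogdh they were 0.21, 0.24 and 0.27 (adjusted p of 0.523, 0.564 and 0.394), against 0.41 in the time course. Pfkm was at -0.19, 0.10 and -0.36 (adjusted p of 0.769, 0.881 and 0.413), against -0.93 in the time course. The difference between tables was not tested.

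Loss of Acss2, Stat3 or p300 was the next question. On the standard diet no member was called in Acss2KO against Acss2WT at G0, G14.5 or G18.5, nor in the test of whether the G14.5 change differs between the genotypes. EdgeR called 0.00711%, 0.0213%, 0.149% and 0.0213% of all genes there. Unadjusted p was under 0.05 for 0, 5, 8 and 0 members, and for 2.67%, 10.47%, 10.9% and 6.08% of all genes. DESeq2 called 1 at G18.5 and 0 in the others, and limma 0 in all 4. Gpd2 was at 54.2 and 52.6 CPM in G14.5_Acss2KO and 39.4 and 47.2 CPM in G14.5_Acss2WT (0.30 ± 0.17, adjusted p = 0.544), and at 84.3 and 83.8 CPM in G0_Acss2KO and 92.6 and 96.4 CPM in G0_Acss2WT (-0.17 ± 0.17, adjusted p = 1). Its gestation change was therefore smaller in knockout mice by 0.47 ± 0.24 on the log2 scale, which did not pass the test (adjusted p = 0.823).

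In Stat3KO against Stat3WT no member was called at G0, G14.5 or G18.5 or in the test of the difference, edgeR calling 0%, 0.0098%, 0.0196% and 0% of all genes. Unadjusted p was under 0.05 for 1, 3, 1 and 2 of the 34 members and for 8.13%, 8.57%, 4.97% and 7.93% of all genes, and DESeq2 called 0 in all 4. Gpd2 was the member with unadjusted p under 0.05 at G0. It was at 69.3 and 62 CPM in G0_Stat3KO and 102.1 and 117.3 CPM in G0_Stat3WT, without overlap (-0.74 ± 0.23, adjusted p = 0.387). At G14.5 the same gene was at 61.6 and 54.4 CPM in Stat3KO and 47 and 57.8 CPM in Stat3WT libraries, which overlapped. The difference of its gestation change between the genotypes was 0.89 ± 0.32 (adjusted p = 0.539).

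In p300KO mice 2 of 39 members were called at G0, where 1.54% of all genes were. Fumarase Fh1 was at 156.99 and 155.1 CPM in G0_p300KO and 66.6 and 66.3 CPM in G0_p300WT (1.23 ± 0.20, adjusted p = 0.00999), with replicates that differed by little beside the gap between groups. Pgam1 was at 46.8 and 58.6 CPM in G0_p300KO and 22.2 and 17.9 CPM in G0_p300WT (1.40 ± 0.24, adjusted p = 0.0139). Both calls were lost without either G0_p300KO replicate (adjusted p from 0.0519 to 0.112), and Pgam1 without G0_p300WT replicate 2 (0.0684). At G14.5 no member was called in p300KO against p300WT, and none in the test of the difference, where 0% and 0.0668% of all genes were called. Unadjusted p was under 0.05 for 4 and 3 members and for 9.89% and 10.4% of all genes, and DESeq2 called 1 in either. Pgam1 had the lowest p in the test of the difference, with a gestation change lower by 1.5 ± 0.33 in knockout mice (adjusted p = 0.189). The calls of Pgam1 in G14.5_p300WT and G0_p300KO and this test share the G0_p300WT libraries, so they are not separate observations. Summed hypoxia-induced genes outside the pathway were at 412 to 432 CPM in G0_p300WT and 300 to 313 CPM in G0_p300KO. In G14.5_p300WT they were at 298 to 401 CPM. The part of this difference in the calls was not tested.

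On the high-fat diet, pregnancy again went with low Gpd2. It was at 46.5, 51.3 and 63.1 CPM in HFD_G14.5 and 81.3 and 135.1 CPM in HFD_G0 (-1.01 ± 0.20, adjusted p = 0.0112). It was at 36.4 and 41.2 CPM in HFD_G14.5_Acss2WT and 65.3 and 97.6 CPM in HFD_G0_Acss2WT (-1.07 ± 0.22, adjusted p = 0.0152). Neither pair overlapped. At day 7 after delivery it was still at 54.4 and 55.9 CPM (HFD_P7NL), within the range of HFD_G14.5 (0.04 ± 0.20, adjusted p = 0.97). In mice with no genotype given 2 of 39 members were called at HFD_G14.5, where 1.95% of all genes were, and in Acss2WT mice 1 of 39, where 1.93% were. The second call was Eno1, which makes phosphoenolpyruvate, at 115.3, 111.4 and 111.1 CPM in HFD_G14.5 and 78.7 and 70.3 CPM in HFD_G0 (0.60 ± 0.15, adjusted p = 0.0404). Summed α-cell markers were at 2786 to 8875 CPM in HFD_G14.5 and 2221 to 2834 CPM in HFD_G0. Summed immune markers, of which 1 of 5 reached 10 CPM in the high-fat table, were at 123.6 to 145.2 CPM in HFD_G14.5 and 48.5 to 71.8 CPM in HFD_G0. Both calls were kept without cells high in other hormones, and the part of these cell types was not tested further. Without HFD_G0 replicate 2 both calls of HFD_G14.5 were lost and Gpd2 was at -0.60 (adjusted p = 0.523 for both). Both were lost without HFD_G14.5 replicate 1 (0.0532 to 0.097). Eno1 was lost without HFD_G0 replicate 1 (0.118) or HFD_G14.5 replicates 2 (0.0515) or 3 (0.117). The Acss2WT call of Gpd2 was lost without HFD_G0_Acss2WT replicate 2 (0.132) or either HFD_G14.5_Acss2WT replicate (0.0883 to 0.164). HFD_P7NL against HFD_G14.5 had 0 members called with edgeR, where 1.32% of all genes were, 6 with unadjusted p under 0.05 (12.8% of all genes), 1 with DESeq2 and 0 with limma.

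**Figure D4:**
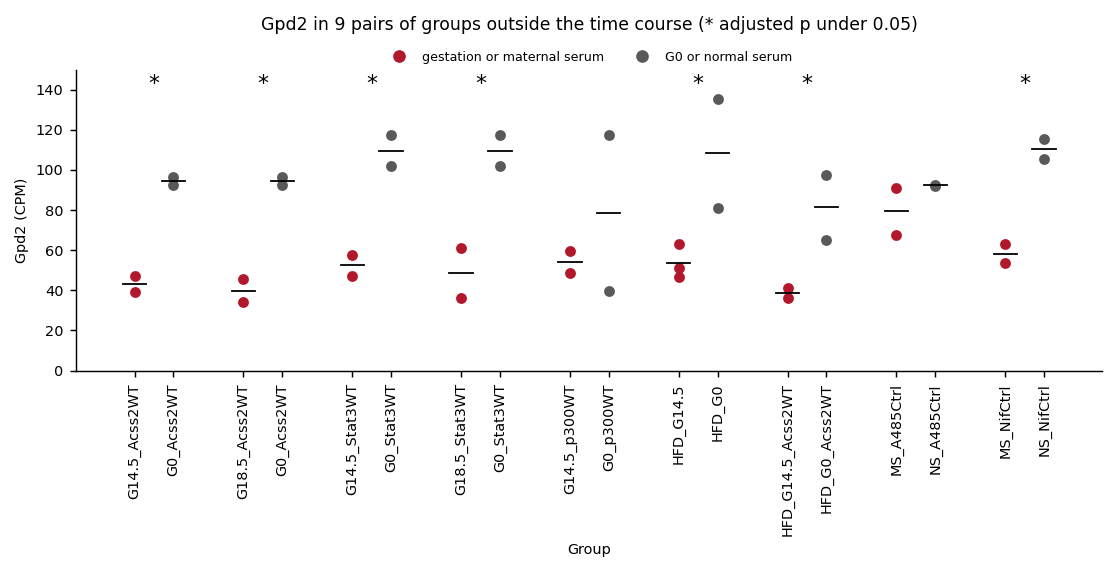
CPM of Gpd2 in each library (points) and group mean (line) in 9 pairs of groups outside the time course, gestation or maternal serum (red) left of G0 or normal serum (grey), with a star where the adjusted p is under 0.05. In 7 pairs the groups are apart with a star, among them 39.4 and 47.2 CPM in G14.5_Acss2WT and 92.6 and 96.4 CPM in G0_Acss2WT; in the p300 table the G0 libraries lie at 117.5 and 39.6 CPM.

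The comparison of HFD_G14.5_Acss2KO with HFD_G14.5_Acss2WT had no call either, but its glycolysis genes had low values on the whole. EdgeR called 0.0638% of all genes and 0 members. Unadjusted p was under 0.05 for 14 members, 12 lower and 2 higher, a share of 35.9% against 8.47% of all genes. DESeq2 called 2 and limma 0. The median log2 fold change of the members was -0.30, against a median near 0 over all genes. The libraries also differed in other ways. Acinar markers were at 6.54 to 346 CPM in HFD_G14.5_Acss2KO and 0.472 to 8.09 CPM in HFD_G14.5_Acss2WT libraries, and δ-cell markers at 131.2 to 146.2 CPM in HFD_G14.5_Acss2KO and 145.3 to 1152 CPM in HFD_G14.5_Acss2WT. HFD_G14.5_Acss2WT replicate 1 stood apart, with 45.1% of reads in insulin genes and a median of 8515.5 genes per cell, where the other 3 libraries had 56.2% to 58.2% and 7363 to 7756 genes. The part of these differences in the result was not tested. Gapdh, Pkm and Gpd2 are named here after their values were seen. Gapdh was at 51.7 and 54.8 CPM in HFD_G14.5_Acss2KO and 117.6 and 136.8 CPM in HFD_G14.5_Acss2WT (-1.26 ± 0.25, adjusted p = 0.0917). Pkm was at 348 and 354 CPM in HFD_G14.5_Acss2KO and 490 and 592 CPM in HFD_G14.5_Acss2WT (-0.62 ± 0.18, adjusted p = 0.305). Gpd2 ran the other way, at 56.5 and 56.3 CPM in HFD_G14.5_Acss2KO and 36.4 and 41.2 CPM in HFD_G14.5_Acss2WT (0.54 ± 0.22, adjusted p = 0.526). The same wild-type libraries were high against the standard diet. In HFD_G14.5_Acss2WT against SD_G14.5_Acss2WT the median of the members was 0.27, 9 members were higher and 1 lower at unadjusted p under 0.05, a share of 25.6% against 12.3% of all genes. Pkm was at 490 and 592 CPM in HFD_G14.5_Acss2WT and 369 and 249 CPM in SD_G14.5_Acss2WT (0.81 ± 0.18, adjusted p = 0.0541). There edgeR called 0.213% of all genes and 0 members, DESeq2 4 and limma 0. Both comparisons share the HFD_G14.5_Acss2WT libraries, so they are not separate observations. At G0 on the high-fat diet 0 members and 0% of all genes were called in Acss2KO against Acss2WT, with 3 members and 7.75% of all genes at unadjusted p under 0.05, 1 called with DESeq2 and 0 with limma.

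**Figure D5:**
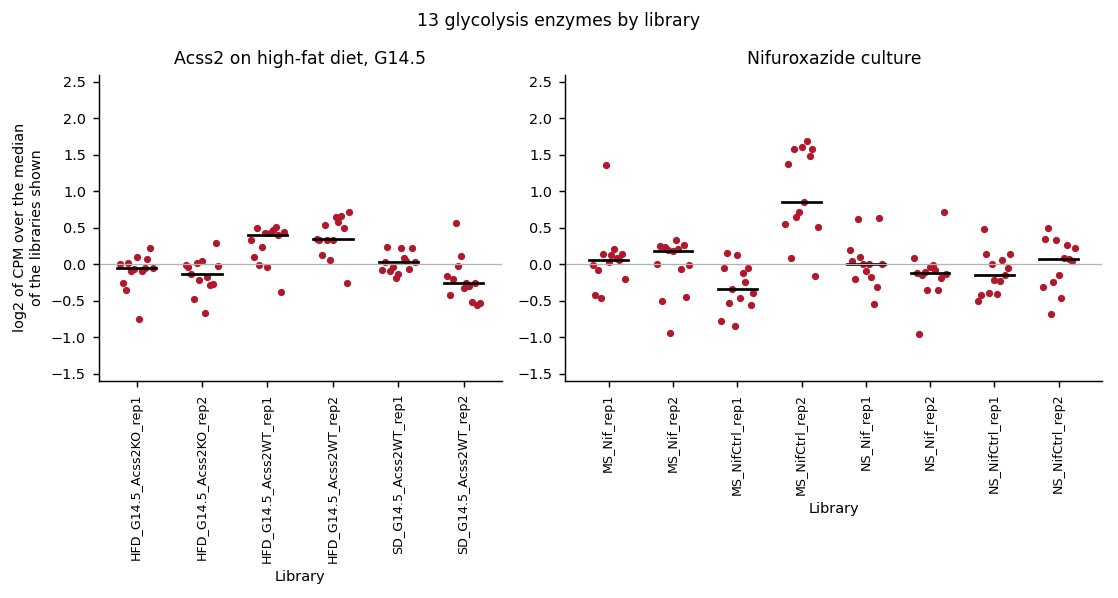
The 13 glycolysis enzymes in each library of the Acss2 groups at G14.5 (left) and of the nifuroxazide cultures (right), each point a gene as log2 of its CPM over the median of the libraries shown, with the median of the 13 genes as a line. HFD_G14.5_Acss2WT libraries lie above both HFD_G14.5_Acss2KO and SD_G14.5_Acss2WT libraries, and MS_NifCtrl replicate 2 stands apart, with a summed level of 4185 CPM against 1856 to 2501 CPM in the other 7 culture libraries.

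In cultured islets the first comparison asks whether maternal serum alone shifts the enzymes. Without drug, MS_A485Ctrl against NS_A485Ctrl had 0 members called with edgeR, where 0.657% of all genes were, and 0 with DESeq2 or limma. Of the members, 8 had unadjusted p under 0.05, all higher in maternal serum, a share of 20.5% against 12.04% of all genes, with a median over the members of 0.16 against 0.01 over all genes. Gpd2 was at 91.1 and 67.7 CPM in MS_A485Ctrl and 92.5 and 92.05 CPM in NS_A485Ctrl (-0.22 ± 0.17, adjusted p = 0.664). With A485, Pkm fell in maternal serum. It was at 467 and 469 CPM in MS_A485 and 706 and 737 CPM in MS_A485Ctrl (-0.62 ± 0.11, adjusted p = 0.0132). Eno2 rose, at 63.5 and 57.5 CPM in MS_A485 and 35.9 and 35.2 CPM in MS_A485Ctrl (0.77 ± 0.16, adjusted p = 0.0225). These were 2 of 39 members, where 3.3% of all genes were called. In normal serum 1 of 39 was called, where 2.57% of all genes were. It was Dld, the E3 subunit shared by the pyruvate and oxoglutarate dehydrogenase complexes, at 38.1 and 37.9 CPM in NS_A485 and 71.6 and 55.4 CPM in NS_A485Ctrl (-0.74 ± 0.17, adjusted p = 0.0493). Shares among the members were therefore near those of all genes. Insulin genes took 35.5% and 36.3% of reads in MS_A485 and 51.2% and 41.7% in MS_A485Ctrl. They took 48.1% and 49.6% in NS_A485 and 61.3% and 59.9% in NS_A485Ctrl. Summed δ-cell markers were at 112.8 to 125.9 CPM in NS_A485 and 474.6 to 2471 CPM in NS_A485Ctrl, and overlapped between MS_A485 and MS_A485Ctrl. The part of these differences in the calls was not tested. Eno2 was lost without MS_A485Ctrl replicates 1 (adjusted p = 0.0943) or 2 (0.0961). Eno2 and Pkm were lost without MS_A485 replicates 1 (0.0887 to 0.147) or 2 (0.0724 to 0.0742), and Dld was lost without NS_A485Ctrl replicate 1 (0.264) or NS_A485 replicates 1 (0.25) or 2 (0.241). Dld was not called with limma (0.148) or DESeq2's size factors (0.0513), nor without cells high in other hormones (0.0506). The test of whether A485 acts differently in the serums called 0 members and 0.00738% of all genes, with 0 members and 4.67% of all genes at unadjusted p under 0.05 and 0 with DESeq2 or limma.

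The nifuroxazide table has a library that stands apart, MS_NifCtrl replicate 2. Its 13 glycolysis genes summed to 4185 CPM, and it was the highest of 8 libraries for 10 of the 13. Its 12 hypoxia-induced genes outside the pathway summed to 787 CPM against 389 to 640 CPM in the other 7. The part of hypoxia in its level was not tested. Maternal serum against normal serum (MS_NifCtrl against NS_NifCtrl) had 2 of 39 members called, where 1.02% of all genes were. Gpd2 was at 53.5 and 63.1 CPM in MS_NifCtrl and 105.5 and 115.5 CPM in NS_NifCtrl (-0.92 ± 0.18, adjusted p = 0.0218). Cytosolic isocitrate dehydrogenase Idh1, which makes NADPH, was at 43.9 and 37.7 CPM in MS_NifCtrl and 80.8 and 68.6 CPM in NS_NifCtrl (-0.87 ± 0.19, adjusted p = 0.0493). Neither pair overlapped, and both calls were lost whichever library was left out. The libraries were MS_NifCtrl replicate 2 (adjusted p from 0.0691 to 0.358), MS_NifCtrl replicate 1 (0.0937 to 0.132), NS_NifCtrl replicate 1 (0.114 to 0.368) and NS_NifCtrl replicate 2 (0.144 to 0.201). Limma called 0 members (0.131 for Gpd2 and 0.145 for Idh1) and DESeq2 called 2, and Idh1 was not called with DESeq2's size factors (0.0524). Without MS_NifCtrl replicate 1 the comparison called 7 members and without MS_NifCtrl replicate 2 it called 0. The A485 table, another set of cultures, holds the same serum comparison without drug and showed no call of either gene.

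With nifuroxazide in normal serum, Pdk1, the kinase that shuts pyruvate dehydrogenase, fell to 8.10 and 9.95 CPM in NS_Nif, against 29.4 and 34.2 CPM in NS_NifCtrl (-1.82 ± 0.37, adjusted p = 0.0224), a fitted change to 0.28 times the vehicle level. It was the only call of 39, where 1.99% of all genes were called, and was lost whichever library was left out, NS_NifCtrl replicates 1 (adjusted p = 0.0976) or 2 (0.154), NS_Nif replicates 1 (0.113) or 2 (0.073). Limma called 0 members (0.0896 for Pdk1) and DESeq2 called 4. Insulin genes took 37.9% and 38.5% of reads in NS_Nif and 47.7% and 49.1% in NS_NifCtrl. Summed α-cell markers were at 987 to 1274 CPM in NS_Nif and 2400 to 4467 CPM in NS_NifCtrl. They were at 848 to 978 CPM in MS_Nif and 1320 to 1502 CPM in MS_NifCtrl. The part of these differences in the calls of the nifuroxazide table was not tested. In maternal serum (MS_Nif against MS_NifCtrl) 0 members were called with edgeR, where 0.697% of all genes were, 7 had unadjusted p under 0.05 (9.91% of all genes), and DESeq2 and limma called 0. The MS_NifCtrl library that stands apart enters this comparison. The test of whether the drug acts differently in the serums called 0 members and 0% of all genes, with 3 members and 6.57% of all genes at unadjusted p under 0.05 and 0 with DESeq2 or limma.

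Genes of the same pathway that are not in the group were read from a list of 48, of which 47 are in 6 of the tables and 46 passed the filter in the time course. G6pc2, the islet glucose-6-phosphatase, which turns glucose 6-phosphate back into glucose, was the most regular of them, called higher at all 9 gestation stages, from 2124 ± 110.6 CPM at G18.5 (0.84, n = 3) to 3346 ± 261 CPM at G5.5 (1.5, n = 2), against 1185 ± 30.5 CPM at G0 (n = 2). It was also higher in G14.5_Acss2WT, at 4516 ± 885 CPM against 1600 ± 44.9 CPM in G0_Acss2WT (1.5, adjusted p = 2.15e-05, n = 2 each), and in G18.5_Acss2WT (1.01). No call of G6pc2 was made in G14.5_p300WT, HFD_G14.5 or HFD_G14.5_Acss2WT, each against its own G0. Its calls in the time course share the same pair of G0 libraries. After delivery G6pc2 was called higher at P2NL (1.19) and P14NL (0.83) and was not called at P7NL. With nifuroxazide it was called lower, at 1085 ± 137.5 CPM in NS_Nif against 2242 ± 571 CPM in NS_NifCtrl (-1.05, adjusted p = 0.0114) and 1318 ± 268 CPM in MS_Nif against 2630 ± 339 CPM in MS_NifCtrl (-0.997, adjusted p = 0.0254, n = 2 each). Sdhb, a subunit of succinate dehydrogenase, rose at G8.5 and at each of the 4 stages from G12.5 on, with 103.8 ± 5.70 CPM at G8.5 against 66.7 ± 0.65 CPM at G0 (0.64, adjusted p = 0.00611, n = 2 each). Glutamate dehydrogenase (Glud1), which feeds oxoglutarate into the cycle, was called lower at G8.5 and all 5 later stages, with 34.4 ± 0.79 CPM at G8.5 against 58.2 ± 19.3 CPM at G0 (-0.75, adjusted p = 0.0146, n = 2 each). The Glud1 calls share this pair of G0 libraries, which lay far apart, and at G14.5 (39.4 ± 7.15 CPM, n = 3) the libraries overlapped G0. Refits without a library are given here for the members only. The muscle enolase Eno3 fell to 12.2 ± 1.46 CPM at G14.5 (n = 3), against 33.9 ± 4.11 CPM at G0 (n = 2; -1.48, adjusted p = 9.72e-05).

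Over the list, 3 genes rose and 2 fell at G12.5 (10.9% of those tested, against 5.03% of all genes), 3 and 3 at G14.5 (13% against 10.1%), 2 and 1 at G16.5 (6.52% against 7.25%) and 2 and 1 at G18.5 (6.52% against 4.77%). The shares at G14.5, G16.5 and G18.5 were thus near those of all genes. Earlier in gestation the list had 1 call at G3.5 (2.17% against 0.579%), 3 at G5.5 (6.52% against 1.57%) and 2 at G6.5 (4.35% against 1.65%). It had 4 at G8.5 (8.7% against 5.79%) and 3 at G10.5 (6.52% against 2.76%). From G3.5 to G12.5 the share thus lay above that of all genes, on few genes. After delivery 2 rose at P2NL (4.35% against 0.572% of all genes) and 1 rose at P14NL (2.17% against 0.28%). None was called at P7NL, where 0.462% of all genes were, or between L and NL mothers on the 3 days. At the head of the pathway, the glucose transporter Slc2a2 was called lower in 6 comparisons. During gestation these were G10.5 (225 ± 18.9 CPM against 324 ± 40.6 CPM at G0, n = 2 each), G18.5_Acss2WT (221 ± 3.498 CPM against 328 ± 20.02 CPM in G0_Acss2WT, n = 2 each) and HFD_G14.5 (243 ± 66.2 CPM, n = 3, against 423 ± 22.8 CPM in HFD_G0, n = 2). In culture it fell with A485 in both serums, to 82.6 ± 11.8 CPM in MS_A485 against 252 ± 78.6 CPM in MS_A485Ctrl (-1.61, adjusted p = 0.00192) and 153.6 ± 21.1 CPM in NS_A485 against 307 ± 12.8 CPM in NS_A485Ctrl (-0.999, adjusted p = 0.0274). With nifuroxazide it fell to 142.01 ± 8.75 CPM in NS_Nif, against 343 ± 13.4 CPM in NS_NifCtrl (-1.27, adjusted p = 0.00693, n = 2 each). ATP citrate lyase (Acly), which turns exported citrate into cytosolic acetyl-CoA, fell with A485 in both serums, to 452 ± 41.4 CPM in MS_A485 against 941 ± 100 CPM in MS_A485Ctrl (-1.06, adjusted p = 0.00274) and 457 ± 53.2 CPM in NS_A485 against 865 ± 92.6 CPM in NS_A485Ctrl (-0.92, adjusted p = 0.00791). Gpd1, the cytosolic partner of Gpd2, was also lower with A485 in both serums, at 6.15 ± 1.905 CPM in MS_A485 against 20.4 ± 5.60 CPM in MS_A485Ctrl (-1.73, adjusted p = 0.0204) and at 4.73 ± 0.60 CPM in NS_A485 against 14.2 ± 1.044 CPM in NS_A485Ctrl (-1.59, adjusted p = 0.0415, n = 2 each). The culture libraries also differed in insulin reads and in markers of other islet cells, as given above. The part of these differences in the culture calls of Slc2a2, Acly, Gpd1 and G6pc2 was not tested.

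Across all 45 comparisons, 19 had a member called and 26 had none, and the 53 calls fell on 21 of the 39 genes. Ogdh, Suclg1, Mdh1 and Mdh2 were called only as higher, in 5, 5, 4 and 4 comparisons, and Pfkm and Gpd2 only as lower, in 5 and 11. Fh1 was called in both directions, lower at G18.5 and higher in G0_p300KO. The other 18 genes, among them Pcx, Pdha1, Pdhb, Idh2, Idh3a, Got2, Aldoa and Tpi1, were called in no comparison. Many of the comparisons share a control group, so their counts do not add up as separate observations.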

How the data were processed

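Per the labels' protocols, islets were picked by hand and dissociated, and single cells were sorted into plates. The authors deposited raw read counts per gene and cell in 7 tables. Trimming with Trimmomatic 0.39, counting with featureCounts 2.0.1 and the build GRCm38 (mm10) are named, per the submitters' processing notes. Neither the aligner nor any use of strand or removal of duplicates is stated in the sources used here. A normalized value deposited by the authors, here treated as a signal (reads per length scaled to a fixed sum per cell), and the gene length in bases, a further deposited column, served for limma and for RPKM.

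Cells were added up within each replicate of a group, and these summed counts were normalized with TMM, filtered with filterByExpr and fitted with edgeR 4.0.16 (glmQLFit, glmQLFTest; R 4.3.3), 1 model per table with all groups, Benjamini-Hochberg adjusted over all genes of a comparison. A gene was called at adjusted p under 0.05. CPM use TMM library sizes, and values are mean ± SD over replicates. The SE given with a fold change was derived from the test, as the absolute log2 fold change over the square root of its F statistic. Alternatives were DESeq2 1.42.0 (its size factors, and its Wald test), limma 3.58.1 on log2 of the mean signal plus 0.1, no filter, a replicate block, leaving out cells with over 5% of reads in other hormone genes, and leaving out each library. The fits were tested on simulated data, where known changes were put into 100 genes at either size. For G14.5 against G0, 60% of changes of 1 on the log2 scale and 86% of changes of 2 were called in the right direction. For MS_NifCtrl against NS_NifCtrl these shares were 34% and 73%. Of unchanged genes, 5 of 14776 and 14 of 13007 were called. Smaller changes were not simulated, so a missing call does not show that a gene was unchanged. Limma was not run for Stat3 and p300, whose normalized values are incomplete.

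Libraries hold 13273435 to 181405413 reads; the counts are of reads, not of separate molecules. In G14.5, G18.5, P14L and HFD_G14.5, the label of the third replicate lacks the word biological, and it was used as a replicate; p-values measure the spread between these samples. Replicate numbers did not pair the samples: of 395 pairs of same-numbered libraries, 8 had correlated deviations over 0.1, and the median correlation per count table lay between -0.0089 and 0.018.

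Members and lists were chosen with earlier results of these data known. Called members are named in each comparison, and others by number or level, except where the text says that they were chosen after their values were seen or sets a called gene beside its values elsewhere. The 2 droplet libraries of whole islets were not analysed here.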

Additional observations from a re-analysis of the deposited data

How the results depend on the processing

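Of the 53 calls, none turned its direction. DESeq2's size factors kept 50, the unfiltered fit 49, DESeq2's Wald test 53, the fit without cells high in other hormones 52, and limma 37 of the 47 it could test. Leaving out 1 library at a time gave 225 refits of a call, of which 90 kept it; 4 calls were kept in all of them and under every other alternative run: Gpd2 in G14.5_Acss2WT and G18.5_Acss2WT, Pfkm at G14.5 and Ogdh at G12.5. Groups of 2 leave a lone library in such a refit, whose spread is taken from the other groups. The replicate block kept 46 calls, and by the labels same-numbered libraries share only a number.

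Counts of members called moved as follows, with the main count in brackets; causes were not tested. Without the filter on low counts they were 1 (0) at G3.5, 2 (1) at G5.5, 1 (0) at P2NL, 1 (0) at P7NL, 2 (0) at P14NL, 1 (0) for P2L, 1 (0) for P14L, 5 (1) and 6 (3) for G14.5_Acss2WT and G18.5_Acss2WT, 2 (0) for Acss2KO at G14.5 and at G18.5, 2 (1) for G14.5_Stat3WT, 1 (0) for G0_Stat3KO, 5 (2) for G14.5_p300WT, 5 (2) for G0_p300KO, 1 (0) for G14.5_p300KO, 2 (0) for the p300 test of the difference, 1 (0) for HFD_G14.5_Acss2KO, 2 (1) for HFD_G14.5_Acss2WT against HFD_G0_Acss2WT and 3 (0) against SD_G14.5_Acss2WT. In the cultures they were 3 (0) for MS_A485Ctrl, 4 (1) for NS_A485, 4 (2) for MS_A485, 9 (2) for MS_NifCtrl, 3 (1) for NS_Nif, 6 (0) for MS_Nif and 2 (0) for the nifuroxazide test of the difference. With DESeq2's Wald test they were 1 at G3.5, 3 at G5.5, 1 at G6.5, 5 (3) at G10.5, 7 (4) at G18.5, 1 at P7NL, 1 for P7L, 4 and 7 for G14.5_Acss2WT and G18.5_Acss2WT, 1 for G18.5_Acss2KO, 5 for G14.5_p300WT, 4 for G0_p300KO, 1 for G14.5_p300KO, 1 for the p300 test of the difference, 4 for HFD_G14.5, 1 for HFD_P7NL, 1 for HFD_G0_Acss2KO, 2 for HFD_G14.5_Acss2KO, 4 for HFD_G14.5_Acss2WT against SD_G14.5_Acss2WT, 4 for NS_A485 and 4 for NS_Nif. Limma gave 1 at G6.5, 0 for MS_NifCtrl and 0 for NS_Nif; DESeq2's size factors gave 0 for NS_A485 and 1 for MS_NifCtrl; leaving out cells high in other hormones gave 0 for NS_A485. With the replicate block the counts were 1 for P14L, 1 for G14.5_p300WT, 1 for HFD_G14.5, 2 for NS_A485, 1 for MS_NifCtrl and 2 for NS_Nif. With the block, the share of all genes called was 0.673% against 1.95% without it in HFD_G14.5, 0.716% against 1.32% in HFD_P7NL, 0.0496% against 0.213% in HFD_G14.5_Acss2WT against SD_G14.5_Acss2WT, 1% against 0.657% in MS_A485Ctrl, 0.0294% against 0.0098% in G14.5_Stat3KO and 0.0295% against 0.00738% in the A485 test of the difference.

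Without 1 library, members called ranged from 0 to 1 at G3.5, 0 to 3 at G5.5, 0 to 3 at G8.5, 0 to 2 at G10.5, 1 to 6 at G12.5, 5 to 10 at G14.5, 2 to 5 at G16.5, 0 to 3 at G18.5, 0 to 1 at P7NL and P2L, 1 to 4 for G18.5_Acss2WT, 0 to 0 for G14.5_Stat3WT, 0 to 1 for G18.5_Stat3WT, 0 to 2 for G14.5_p300WT, 0 to 3 for G0_p300KO, 0 to 3 for HFD_G14.5, 0 to 1 for HFD_G14.5_Acss2WT against HFD_G0_Acss2WT or SD_G14.5_Acss2WT, 0 to 1 for NS_A485, 0 to 2 for MS_A485, 0 to 7 for MS_NifCtrl, 0 to 1 for NS_Nif, 0 to 4 for MS_Nif and 0 to 1 for the nifuroxazide test of the difference. Groups of 2 and 3 libraries limit what can be called. The nifuroxazide libraries hold the fewest cells, 21 to 40.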
